A study of Mus musculus with 2 samples.

Results

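Interferon-stimulated genes are genes whose transcription rises in cells that receive an interferon signal. The present account follows 35 of them, chosen by symbol, among the 32285 features counted in single cells of the mouse brain at postnatal day 10. All 35 had a row in the count tables, and all 35 passed the low-count filter of the fit described below. The question is the baseline level of these genes in each cell class of an untreated brain, which is also called interferon tone, and its spread over single cells. The study has 1 group, of untreated C57BL/J mice, and no treated or infected group, so the comparisons are between cell classes of the same 2 libraries. The series names 6 mice and ties no mouse to a library, so the p-values measure only how far 2 libraries spread, which may be technical.

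Type I interferons bind the receptor pair Ifnar1 and Ifnar2, whose kinases Jak1 and Tyk2 activate a complex that holds Stat2 and Irf9. The complex binds the interferon-stimulated response element (ISRE) near many of the genes followed here, while interferon gamma acts through Ifngr1 and Ifngr2 and the gamma-activated site (GAS). The products block viruses at entry (Ifitm proteins), at translation (Ifit proteins) and at release (Bst2), degrade or deplete nucleic acids, sense foreign RNA and DNA, or feed back on the signal (Usp18). In the brain, macrophages of the tissue and its borders, vessel wall cells and astrocytes are known to respond to interferon.

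The sequences just before the transcription start show the element, or no match to it, in some of the genes that the results turn on. RefSeq promoter sequences of build GRCm38.p6 were matched to 29 of the 35 genes by symbol. The ISRE core, spelled GAAANNGAAA and searched on both strands in the 250 bases before the start, was found in 14 of these 29 genes (48.3%) and in 936 of 27025 genes with a promoter in the table (3.46%). The GAS, spelled TTCNNNGAA, was found in 5 of 29 (17.2%) and in 8.13% of all genes, and 1 match of each overlapped in Bst2. A match describes the letters and does not show that a factor binds there. Printed below are the 170 bases before the start, 5′ to 3′ on the strand of the gene, of the ubiquitin-like modifier Isg15, the translation inhibitor Ifit3, the tether of budding virions Bst2 and the 3 neighbouring Ifitm genes of chromosome 7. Capitals mark the letters of an ISRE core on either strand. Isg15 held 3 matches that run into each other, Ifit3 and Bst2 held 2 each and Ifitm2 held 1, whereas the windows of Ifitm1 and Ifitm3 held 0. The GENCODE gene annotation starts Ifitm1 further upstream, at base 140967221 of chromosome 7, so the Ifitm1 window printed here lies inside that gene model.
Isg15, chr4:156200819-156200988, minus strand: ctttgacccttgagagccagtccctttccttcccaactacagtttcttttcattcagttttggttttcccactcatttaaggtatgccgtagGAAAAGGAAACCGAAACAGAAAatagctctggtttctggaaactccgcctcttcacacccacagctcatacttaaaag
Ifit3, chr19:34583359-34583528, plus strand: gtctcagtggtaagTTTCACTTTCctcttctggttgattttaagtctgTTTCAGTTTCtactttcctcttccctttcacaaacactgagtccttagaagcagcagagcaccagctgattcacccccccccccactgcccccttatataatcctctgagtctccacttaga
Bst2, chr8:71537473-71537642, minus strand: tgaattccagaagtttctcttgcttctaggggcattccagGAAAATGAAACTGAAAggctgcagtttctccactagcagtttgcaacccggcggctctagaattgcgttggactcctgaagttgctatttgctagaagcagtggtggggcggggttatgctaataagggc
Ifitm1, chr7:140967906-140968075, plus strand: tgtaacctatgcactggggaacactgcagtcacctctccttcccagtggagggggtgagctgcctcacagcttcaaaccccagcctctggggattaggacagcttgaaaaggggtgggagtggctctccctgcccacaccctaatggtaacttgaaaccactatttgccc
Ifitm2, chr7:140955962-140956131, minus strand: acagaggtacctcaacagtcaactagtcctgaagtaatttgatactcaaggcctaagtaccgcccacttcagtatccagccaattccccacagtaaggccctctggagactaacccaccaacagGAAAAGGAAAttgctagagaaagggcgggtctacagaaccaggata
Ifitm3, chr7:141010745-141010914, minus strand: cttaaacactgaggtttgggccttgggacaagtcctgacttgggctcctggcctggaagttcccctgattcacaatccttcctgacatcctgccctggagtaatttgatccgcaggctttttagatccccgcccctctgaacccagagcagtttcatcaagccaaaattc

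Library 1 held 12978 barcodes with 51452085 unique molecular identifiers (UMIs, each marking 1 captured RNA molecule) and a median of 3446 UMIs, and library 2 held 19508 barcodes with 45532691 UMIs and a median of 1470. After quality limits and removal of likely doublets, 11992 and 14068 cells remained. Clusters drawn without the 35 genes and named from marker genes gave 13 classes, and 10.9% of cells in library 1 and 39.8% in library 2 stayed in unnamed clusters, with a median of 1034 UMIs in library 2. A total of 90 barcode sequences occurred in both libraries. Microglia-like cells numbered 95 and 1941 in libraries 1 and 2, border macrophage-like cells (the macrophages of meninges and vessels) 44 and 167, endothelial-like cells 111 and 128, and pericyte-like cells (contractile cells on capillaries) 463 and 58. Markers of the 2 macrophage classes separated them to unequal degrees. Lyve1 stood at 0 and 0.365 CPM in microglia-like cells and at 949 and 739 CPM in border macrophage-like cells, and Tmem119 stood at 139 and 136 CPM in microglia-like cells and at 0 and 19.8 CPM in border macrophage-like cells. Mrc1 stood at 204 and 222 CPM in microglia-like cells and at 2600.1 and 2052 CPM in border macrophage-like cells, and P2ry12 at 669.5 and 587 CPM in microglia-like cells and at 114 and 98.9 CPM in border macrophage-like cells. CPM are UMIs of a gene per 1000000 UMIs of the class in that library, without scaling by gene length because each molecule is counted once at its 3′ end. Throughout, 2 values joined by "and" are libraries 1 and 2. Ifitm2 and Ifitm3, Ifit3, Oas1a, Gbp2, Gbp3, Trim30a and the Ifi200 genes have near copies in the genome, so their counts are less certain. The smooth muscle-like class had 68 and 11 cells and was not tested.

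The summed level of the 35 genes spanned from 3814 and 3880 CPM in pericyte-like cells, 3645 and 3543 CPM in border macrophage-like cells and 3049 and 3419 CPM in smooth muscle-like cells down to 54.3 and 65.5 CPM in differentiating oligodendrocyte-like cells. Endothelial-like cells held 1062 and 1374 CPM, microglia-like cells 696 and 701 CPM, ependymal-like cells (the ciliated lining of the ventricles) 639 and 787 CPM and Cajal-Retzius cell-like neurons 499 and 495 CPM. Astrocyte-like cells followed with 456 and 366 CPM, and excitatory neuron-like, neural progenitor-like, oligodendrocyte precursor-like and neuroblast-like cells lay between 90.9 and 157 CPM. Pericyte-like cells lay above border macrophage-like cells in both libraries, whereas the values of microglia-like and ependymal-like cells overlapped and cannot be ordered.

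A few genes made up most of that sum. In pericyte-like cells Ifitm1, Ifitm2 and Ifitm3 held 85.5% and 86.1% of it. In Cajal-Retzius cell-like neurons Ifitm2 alone held 75.4% and 80.4%, and in excitatory neuron-like cells 77.6% and 76.0%. In border macrophage-like cells Bst2, Ifitm2 and Ifitm3 held 60.8% and 59.8%. A shorter list of 15 genes that are mostly low at rest and strongly induced by interferon (Ifit1, Ifit2, Ifit3, Isg15, Irf7, Rsad2, Oasl2, Oas1a, Usp18, Xaf1, Rtp4, Ifi44, Zbp1, Cmpk2 and Herc6), called core genes here, ranked the classes differently. Its sum was 462 and 451 CPM in border macrophage-like cells, 177 and 184 CPM in endothelial-like, 128 and 102 CPM in pericyte-like, 116 and 101 CPM in ependymal-like and 82.9 and 99.3 CPM in microglia-like cells. Neural progenitor-like cells stood at 60.4 and 53.2 CPM, and differentiating oligodendrocyte-like cells were lowest among tested classes in library 1 with 9.39 CPM and held 10.1 CPM in library 2. Single genes weighed here too: Xaf1 held 50.9 and 47.2 CPM and Cmpk2 30.7 and 34.6 CPM of the ependymal-like sum, and Xaf1 34.6 and 26.2 CPM of the neural progenitor-like sum. In library 1 a single border macrophage-like cell carried 35 of the 77 core UMIs of its class, and without it the sum there was 261 CPM. In library 2 the richest cell carried 32 of 342 core UMIs, and the sum without it was 414 CPM.

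**Figure D1:**
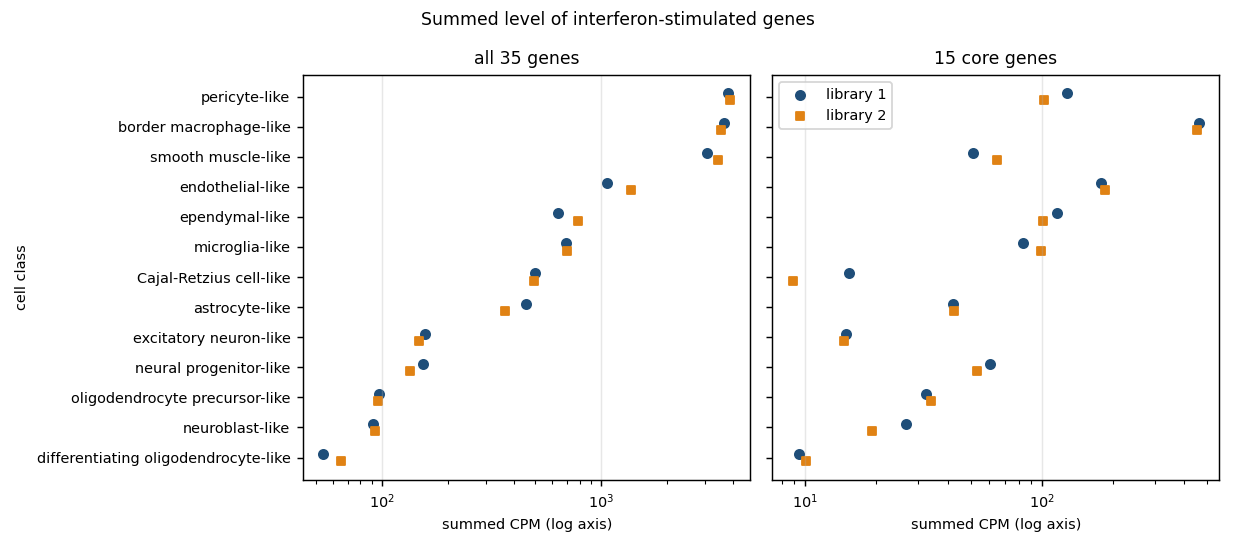
Summed CPM (log axis) of all 35 genes (left) and of the 15 core genes (right) in 13 cell classes, 1 point per library. Pericyte-like and border macrophage-like cells lie between 3543 and 3880 CPM on the left, while on the right border macrophage-like cells stand apart at 462 and 451 CPM.

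Gene by gene, the same class was highest in both libraries, with at least 3 UMIs in each, for 25 of the 35 genes. That class was border macrophage-like for 17 genes, pericyte-like for 3 (Ifitm1, Ifitm3 and the RNA sensor Ifih1), endothelial-like for 2 (Ifi44 and Gbp3), ependymal-like for 2 (Cmpk2 and Gbp2) and smooth muscle-like for 1 (Ifi27). For 24 of the 25, the lower of the top class's 2 values exceeded both values of every other class, Gbp2 being the exception.

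**Figure D2:**
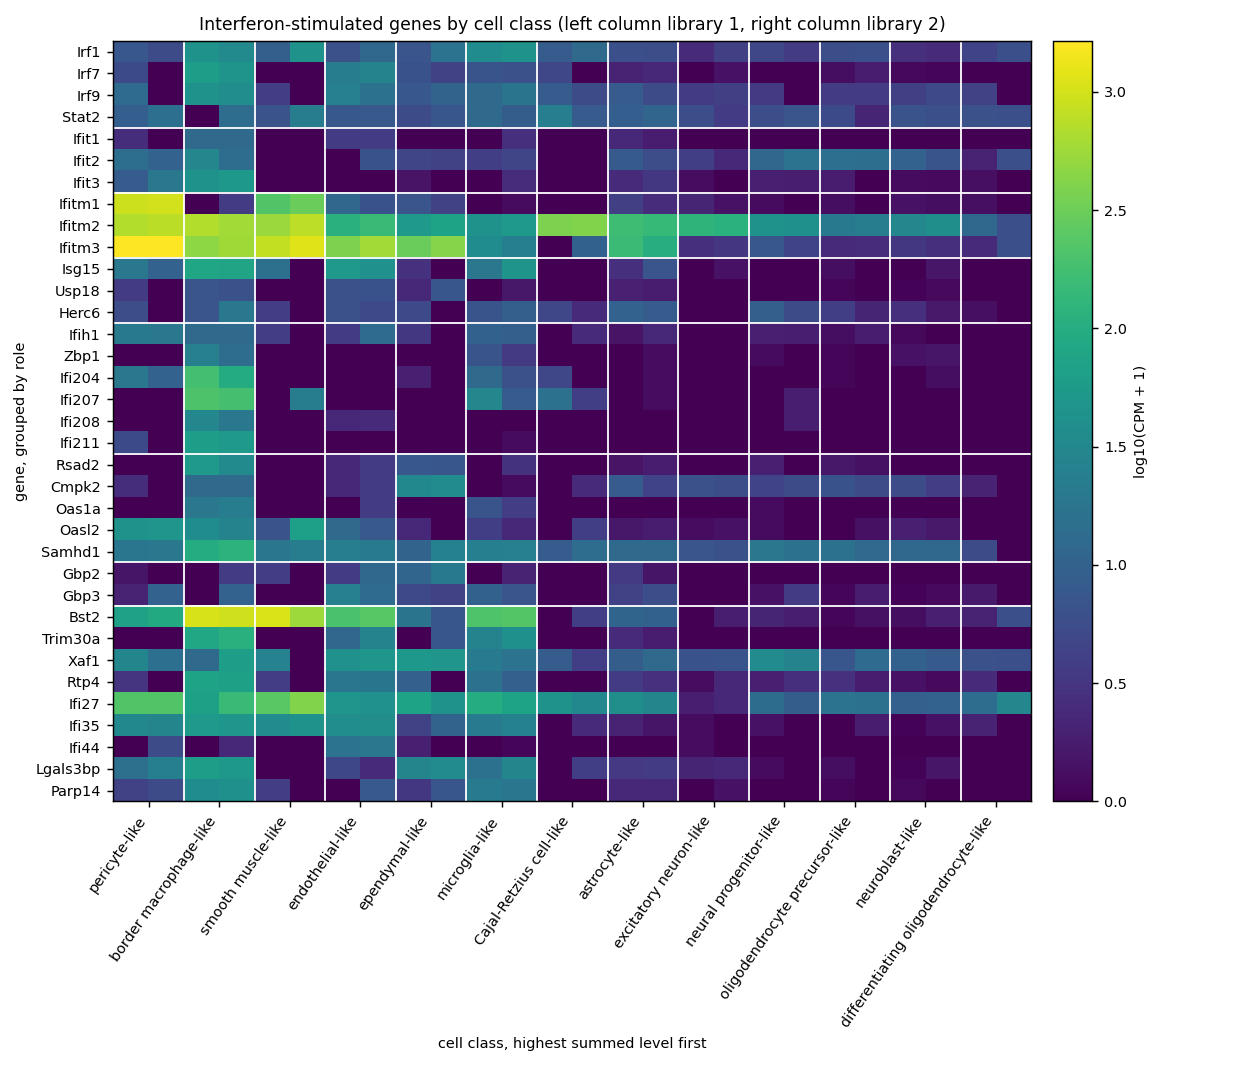
Level of each of the 35 genes, as log10(CPM + 1), in 13 cell classes, with library 1 left and library 2 right within a class and the genes grouped by role. The border macrophage-like column is bright across most roles, the pericyte-like column mainly at Ifitm1, Ifitm2, Ifitm3 and Ifi27, and neuronal columns mainly at Ifitm2.

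UMI sums per class and library were compared in 1 fit over 12 classes and the 13799 genes that passed the low-count filter and were used neither to cluster nor to name cells, by quasi-likelihood in edgeR, and library entered as a block. A gene was called when its adjusted p was under 0.05, its absolute log2 fold change was at least 1 and both libraries had the same sign. The background shares given below leave out the clustering genes, which were picked for varying between cells. The 35 genes and the upstream genes described below were barred from that pick, so none could be dropped this way. The background is therefore not fully alike and may be set low beside them. Against the mean of the other 11 classes, 19 of 35 genes were higher in microglia-like cells, where 17.7% of all tested genes were called higher, and 1 was lower, where 9.02% were. Endothelial-like cells had 18 of 35 higher, with a background of 14.0%, and 0 lower, with a background of 9.29%. Called in both were Bst2, Gbp3, Ifi35, Ifih1, Irf7, Irf9, Isg15, Rtp4 and Trim30a. These fits average the other classes on a log scale, so classes with almost no UMIs weigh as much as classes with many. On plain CPM the median over the 35 genes of the difference in log2(CPM + 1) from the mean of the other classes was 0.01 for microglia-like cells, against -0.65 over all tested genes, and -0.0018 for endothelial-like cells, against -0.55.

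Within each pair of related classes the picture separated. Microglia-like cells set against border macrophage-like cells had 0 of 35 genes called higher, where 3.86% of all tested genes were, and 19 called lower, where 2.72% were. The median difference in log2(CPM + 1) was -1.94 over the 35 genes and 0.04 over all tested genes, and 3 of the 35 differences were positive. DESeq2 called 12 of the 19, with no adjusted p for Ifit1. CPM were also compared without the 3 border macrophage-like cells that held at least 10 core genes each. Then 17 of the 19 genes were still more than 2-fold lower in microglia-like cells in both libraries. Ifit1 and Cmpk2, with 2 UMIs each in border macrophage-like cells of library 1, were not. Some of the 17 rest on little in library 1 too. Ifit2 kept 1 UMI and Zbp1 kept 2 UMIs in border macrophage-like cells there. Ifit3, Rsad2, Ifi208 and Ifi211 were at 0 in microglia-like cells of that library, so any UMI left in border macrophage-like cells met the limit. Endothelial-like cells set against pericyte-like cells had 8 of 35 genes called higher, with a background of 8.70%, and 9 called lower, with a background of 9.49%, of which DESeq2 called 4 and 7. The median difference there was 0.49 over the 35 genes and -0.09 over all tested genes.

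Other cell types' markers moved with these classes. Microglia marker genes summed to 20624 and 19101 CPM in microglia-like cells and to 17258 and 16037 CPM in border macrophage-like cells, most of them being shared macrophage genes. Border macrophage markers summed to 480 and 536 CPM in microglia-like cells and to 21906 and 18395 CPM in border macrophage-like cells. Pericyte markers in endothelial-like cells summed to 122 and 4.16 CPM, and endothelial markers in pericyte-like cells to 462 and 484 CPM, while fibroblast markers in pericyte-like cells summed to 1527 and 1745 CPM. Erythroid markers summed to 3070 and 1285 CPM in endothelial-like cells and to 1.61 and 154 CPM in pericyte-like cells, and border macrophage markers to 214 and 244 CPM in endothelial-like cells and to 9.12 and 14.0 CPM in pericyte-like cells. The largest of 3 microglia-like clusters was led by Ccl4, Spp1, C1qc, Trem2 and Ccl3, so immune response genes stood among its leading genes. The part of these in the results was not tested.

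**Figure D3:**
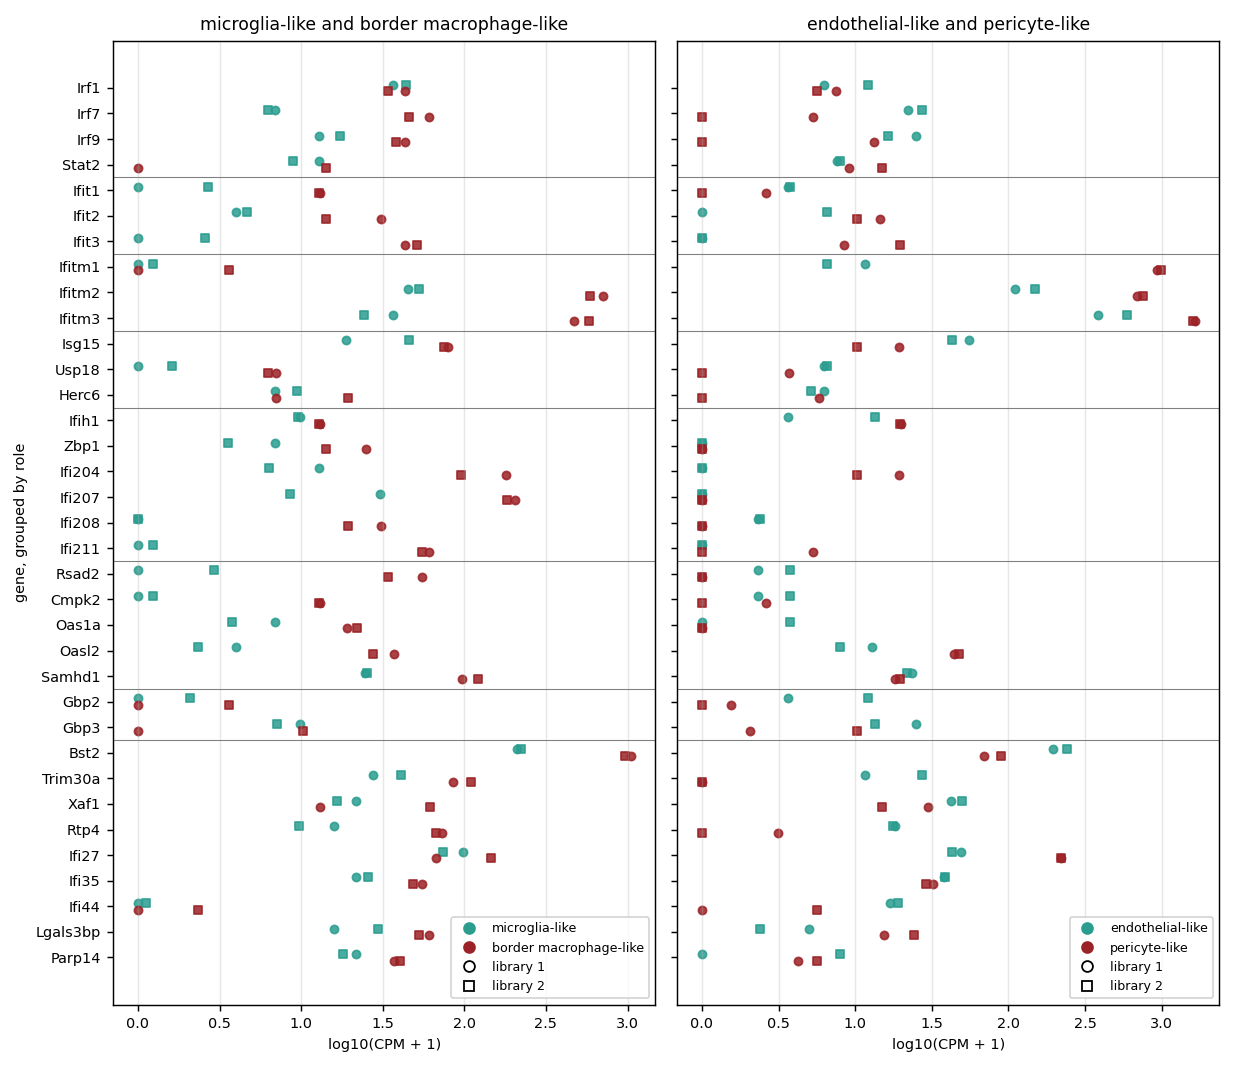
Level of each gene, as log10(CPM + 1), in microglia-like and border macrophage-like cells (left) and in endothelial-like and pericyte-like cells (right), with circles for library 1 and squares for library 2. Most genes on the left lie lower in microglia-like cells, 19 of 35 being called, whereas on the right the genes split between the 2 classes.

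Of the 4 transcription factors that carry the interferon signal, Irf7, which amplifies type I interferon production, set the classes apart. It stood at 5.92 and 5.22 CPM in microglia-like cells and 60.05 and 44.8 CPM in border macrophage-like cells, without overlap (edgeR log2 fold change -2.92 ± 0.43 SE, adjusted p = 1.9e-09). In endothelial-like cells it stood at 21.2 and 26.3 CPM, against 4.29 and 0 CPM in pericyte-like cells (log2 fold change 2.73 ± 0.60, adjusted p = 6e-05). Irf7 was called higher in microglia-like cells than in the mean of the other classes on the fitted log scale, although its plain mean CPM was lower there (ratio 0.707). Irf1, induced mainly by interferon gamma, had 35.5 and 43.01 CPM in microglia-like cells and 42.03 and 32.98 CPM in border macrophage-like cells, a difference that was not called (log2 fold change 0.47 ± 0.35, adjusted p = 0.5), and both stood above the 5.30 and 11.1 CPM of endothelial-like cells. Irf9, the DNA-binding partner of Stat2, was highest in border macrophage-like cells at 42.03 and 36.9 CPM, held 11.8 and 16.4 CPM in microglia-like and 23.8 and 15.3 CPM in endothelial-like cells, and was called higher in the last 2 classes against the rest. Stat2 was called in no comparison, and the highest class mean was 15.2 CPM.

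The Ifit proteins, which bind foreign RNA and hold back its translation, were called lower in microglia-like than in border macrophage-like cells for all 3 genes. Ifit3 stood at 0 and 1.58 CPM in microglia-like cells and 42.03 and 50.1 CPM in border macrophage-like cells (log2 fold change -4.77 ± 0.53, adjusted p = 9.1e-17), and at 7.51 and 18.6 CPM in pericyte-like cells, while endothelial-like cells were listed at 0 in both libraries. Ifit1 had 0 and 1.70 CPM in microglia-like cells and 12.01 and 11.9 CPM in border macrophage-like cells, from 2 and 9 UMIs (log2 fold change -2.57 ± 0.81, adjusted p = 0.02). Endothelial-like cells had 2.65 and 2.77 CPM of it, from 2 UMIs in each library, and were called higher than the other classes. Ifit2 held 2.96 and 3.65 CPM in microglia-like cells and 30.02 and 13.2 CPM in border macrophage-like cells, and it was also present in oligodendrocyte precursor-like cells at 13.8 and 13.5 CPM and neural progenitor-like cells at 10.6 and 15.7 CPM. It was called lower in microglia-like than in border macrophage-like cells (log2 fold change -1.87 ± 0.56, adjusted p = 0.013) and lower in endothelial-like cells, with 0 and 5.55 CPM, than in pericyte-like cells, with 13.4 and 9.31 CPM, the second of which DESeq2 did not call. Without the 1 cell richest in core genes, Ifit2 in border macrophage-like cells of library 1 was 6.22 CPM.

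The Ifitm genes, whose membrane proteins keep viruses from fusing with the cell, lie side by side on chromosome 7 and had unlike patterns over the classes. Ifitm1 was highest in pericyte-like cells at 927 and 991 CPM, followed by smooth muscle-like cells at 222 and 301 CPM. Endothelial-like cells held 10.6 and 5.55 CPM (edgeR log2 fold change -6.68 ± 0.25, adjusted p = 7.9e-150 against pericyte-like cells). Every class outside the vessel wall held at most 5.96 CPM. Ifitm3 held 381 and 592 CPM in endothelial-like cells and 1643 and 1596 CPM in pericyte-like cells (log2 fold change -1.59 ± 0.14, adjusted p = 3.4e-27). It was also high in border macrophage-like cells at 468 and 576 CPM and ependymal-like cells at 299 and 425 CPM, and low in microglia-like cells at 35.5 and 23.3 CPM (log2 fold change -4.20 ± 0.20, adjusted p = 1.8e-93 against border macrophage-like cells). Ifitm2 had the widest reach, with 44.4 and 51.6 CPM in microglia-like cells, 703 and 586 CPM in border macrophage-like cells, 109.9 and 147 CPM in endothelial-like cells and 693 and 754 CPM in pericyte-like cells. Both differences within these pairs were called lower, with log2 fold changes of -3.34 ± 0.17 and -2.34 ± 0.17. Beyond them Ifitm2 stood at 376 and 398 CPM in Cajal-Retzius cell-like neurons, 162 and 141 CPM in astrocyte-like cells and 122 and 112 CPM in excitatory neuron-like cells. In endothelial-like cells Ifitm1 was called higher than the other classes on the fitted log scale, while its plain mean there was lower (ratio 0.0916), pericyte-like cells being one of those other classes.

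Isg15, a ubiquitin-like protein that is joined to other proteins, and its system followed another order. Isg15 stood at 17.8 and 44.8 CPM in microglia-like cells and 78.1 and 73.9 CPM in border macrophage-like cells, and the difference was not called (log2 fold change -0.71 ± 0.30, adjusted p = 0.13). Endothelial-like cells held 54.3 and 41.6 CPM, against 18.2 and 9.31 CPM in pericyte-like cells, a difference that passed in edgeR (log2 fold change 1.44 ± 0.37, adjusted p = 0.00068) and not in DESeq2. Against the mean of all other classes Isg15 was called higher in both microglia-like and endothelial-like cells, with log2 fold changes of 5.62 ± 0.31 and 5.76 ± 0.38. It was at or near 0 in neurons, progenitors and the oligodendrocyte lineage, with at most 0.557 CPM. Usp18, which removes Isg15 from proteins and restrains the receptor, held 5.30 and 5.55 CPM in endothelial-like cells, from 4 UMIs in each library, and was called higher there against the rest. Border macrophage-like cells held about as much Usp18, at 6.00 and 5.28 CPM from 1 and 4 UMIs. Ependymal-like cells were highest in library 2 at 6.30 CPM, from 2 UMIs. Herc6, the ligase that attaches Isg15 in the mouse, had 5.92 and 8.38 CPM in microglia-like cells and was called higher there, and it was as high in astrocyte-like cells at 9.36 and 7.61 CPM.

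Of the 6 sensors of nucleic acids, 5 were called lower in microglia-like than in border macrophage-like cells. The 4 members of the Ifi200 family on chromosome 1, mouse relatives of DNA sensors, share sequence, so that reads may have been split between them. Ifi207 stood at 29.6 and 7.53 CPM in microglia-like cells and 204 and 182 CPM in border macrophage-like cells (log2 fold change -3.98 ± 0.32, adjusted p = 1.9e-32). Ifi204 stood at 11.8 and 5.35 CPM and 180.1 and 94.97 CPM in the same classes (log2 fold change -3.92 ± 0.36, adjusted p = 1.5e-24), and pericyte-like cells had 18.2 and 9.31 CPM of it while endothelial-like cells were listed at 0, a difference that edgeR called and DESeq2 did not. Ifi211 held 0 and 0.243 CPM in microglia-like cells and 60.05 and 54.1 CPM in border macrophage-like cells. Ifi208 was listed at 0 in microglia-like cells of both libraries and held 30.02 and 18.5 CPM in border macrophage-like cells, from 5 and 14 UMIs. In endothelial-like cells Ifi208 was called higher than the other classes on 1 UMI in each library, with a plain mean below theirs (ratio 0.604), and DESeq2 did not call it. Zbp1, a sensor of left-handed nucleic acids, held 5.92 and 2.55 CPM in microglia-like cells and 24.02 and 13.2 CPM in border macrophage-like cells, from 4 and 10 UMIs (log2 fold change -2.17 ± 0.70, adjusted p = 0.025). Ifih1, which senses long double-stranded RNA, differed from this: its 8.89 and 8.51 CPM in microglia-like cells and 12.01 and 11.9 CPM in border macrophage-like cells were not called apart, endothelial-like cells had 2.65 and 12.5 CPM, and pericyte-like cells were highest with 18.8 and 18.6 CPM. DESeq2 did not call Ifi204, Ifi208, Ifi211 and Zbp1 between the 2 macrophage classes. Against the mean of the other classes, Ifi204, Ifi207, Zbp1 and Ifih1 were called higher in microglia-like cells, of which Ifi204 had a plain mean below theirs (ratio 0.614) and was not called by DESeq2, and Ifih1 was called higher in endothelial-like cells.

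All 5 enzymes that act on nucleotides and RNA were lower in microglia-like than in border macrophage-like cells by the edgeR call. Rsad2, which makes a chain-terminating nucleotide, stood at 0 and 1.94 CPM in microglia-like cells and 54.04 and 32.98 CPM in border macrophage-like cells (log2 fold change -4.03 ± 0.56, adjusted p = 9e-11). Its neighbour on chromosome 12, Cmpk2, a mitochondrial nucleotide kinase, held 0 and 0.243 CPM and 12.01 and 11.9 CPM in these classes (log2 fold change -5.15 ± 0.93, adjusted p = 2.2e-06) but was highest in ependymal-like cells at 30.7 and 34.6 CPM. It was the 1 gene called lower in microglia-like cells against all other classes (log2 fold change -3.18 ± 0.78, adjusted p = 0.00016). Samhd1, which degrades deoxynucleotides, was found in nearly all classes and stood at 23.7 and 24.2 CPM in microglia-like cells and 96.1 and 120.0 CPM in border macrophage-like cells (log2 fold change -1.98 ± 0.28, adjusted p = 2.9e-10). Oasl2 held 2.96 and 1.34 CPM in microglia-like cells, 36.03 and 26.4 CPM in border macrophage-like cells, 11.9 and 6.93 CPM in endothelial-like cells and 42.9 and 46.5 CPM in pericyte-like cells, and both pairs were called lower. Oas1a, which makes the activator of an RNA-degrading enzyme, had 5.92 and 2.79 CPM in microglia-like cells and 18.01 and 21.1 CPM in border macrophage-like cells (log2 fold change -2.55 ± 0.64, adjusted p = 0.0017), with at most 2.77 CPM in every other class. Samhd1 and Oas1a were called higher in microglia-like cells, and Oasl2 in endothelial-like cells, against the mean of the other classes. DESeq2 called Oas1a in neither comparison.

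Both guanylate-binding proteins, large GTPases that attack the compartments of intracellular pathogens, were called higher in endothelial-like cells against pericyte-like cells and against all other classes. Gbp3 stood at 23.8 and 12.5 CPM in endothelial-like cells and 1.07 and 9.31 CPM in pericyte-like cells (log2 fold change 3.16 ± 0.74, adjusted p = 0.00016). Gbp2 stood at 2.65 and 11.1 CPM in endothelial-like cells and 0.537 and 0 CPM in pericyte-like cells (log2 fold change 3.73 ± 1.31, adjusted p = 0.022), which DESeq2 did not call, nor Gbp2 against the other classes, and ependymal-like cells held 10.1 and 18.9 CPM. Gbp3 was called higher in microglia-like cells too against the rest, at 8.89 and 6.08 CPM.

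Among the 9 other effectors, Bst2, which tethers virions to the cell surface, was called in all 5 comparisons. It held 210.3 and 223 CPM in microglia-like cells and 1045 and 958 CPM in border macrophage-like cells (log2 fold change -1.95 ± 0.14, adjusted p = 3e-40). Endothelial-like cells held 195 and 239.8 CPM and pericyte-like cells 68.2 and 88.4 CPM (log2 fold change 1.64 ± 0.20, adjusted p = 3.8e-15), and smooth muscle-like cells 1084 and 559 CPM. In oligodendrocyte precursor-like cells the level was 0.155 and 0.386 CPM, so the classes differed by far more than the libraries did. Trim30a, a brake on inflammatory signalling in mouse macrophages, stood at 26.7 and 39.98 CPM in microglia-like cells and 84.1 and 109 CPM in border macrophage-like cells (log2 fold change -1.28 ± 0.29, adjusted p = 0.00044), and at 10.6 and 26.3 CPM in endothelial-like cells while pericyte-like cells were listed at 0. Rtp4, a chaperone induced by type I interferon, held 14.8 and 8.75 CPM in microglia-like cells and 72.1 and 65.95 CPM in border macrophage-like cells (log2 fold change -2.54 ± 0.36, adjusted p = 3.9e-10), and 17.2 and 16.6 CPM in endothelial-like cells, against 2.15 and 0 CPM in pericyte-like cells. DESeq2 called Trim30a in none of its 4 comparisons that edgeR called.

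Among these other effectors, Ifi44 came nearest to a gene of a single class. Endothelial-like cells held 15.9 and 18.02 CPM of it, from 12 and 13 UMIs, and pericyte-like cells 0 and 4.65 CPM. The mean of the other 11 classes was 0.110 and 0.554 CPM. DESeq2 called it against the other classes and not against pericyte-like cells. Ifi27, a small membrane protein, held 47.7 and 41.6 CPM in endothelial-like cells and 219 and 219 CPM in pericyte-like cells (log2 fold change -2.14 ± 0.21, adjusted p = 1.4e-21), and smooth muscle-like cells were highest at 245 and 409 CPM. Its 97.8 and 73.3 CPM in microglia-like cells and 66.1 and 145 CPM in border macrophage-like cells overlapped and were not called apart. Lgals3bp, a secreted glycoprotein, was called lower in endothelial-like cells at 3.97 and 1.39 CPM than in pericyte-like cells at 14.5 and 23.3 CPM, and ependymal-like cells held 27.98 and 34.6 CPM. Xaf1, which promotes cell death, was highest in ependymal-like cells in library 1 and in border macrophage-like cells in library 2, with 50.9 and 47.2 CPM in ependymal-like, 12.01 and 60.7 CPM in border macrophage-like and 41.05 and 48.5 CPM in endothelial-like cells. Its border macrophage-like level rests on 2 UMIs in library 1. Bst2, Trim30a, Rtp4, Ifi27 and Lgals3bp, the last at 14.8 and 28.7 CPM, were called higher in microglia-like cells against the rest, and Bst2, Trim30a, Rtp4, Xaf1 and Ifi44 in endothelial-like cells. Ifi35 and Parp14 were called higher in microglia-like cells too, at 20.7 and 24.8 CPM and 20.7 and 17.1 CPM, and Ifi35 in endothelial-like cells too, at 37.1 and 37.4 CPM. In border macrophage-like cells they stood at 54.04 and 47.5 CPM and 36.03 and 39.6 CPM, a difference from microglia-like cells that was not called for either.

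Neurons held little of most of these genes, and so did the oligodendrocyte lineage. The 35 genes summed to 96.8 and 96.1 CPM in oligodendrocyte precursor-like cells and to 54.3 and 65.5 CPM in differentiating oligodendrocyte-like cells. The other macroglial classes held more, with 456 and 366 CPM in astrocyte-like and 639 and 787 CPM in ependymal-like cells. Among neurons the sums were 499 and 495 CPM in Cajal-Retzius cell-like, 157 and 148 CPM in excitatory neuron-like and 90.9 and 93.2 CPM in neuroblast-like cells. Ifitm2 made up most of the first 2 of these. The sums therefore do not place all neuronal classes below the macroglial ones. Neuronal classes (neuroblast-like, excitatory neuron-like and Cajal-Retzius cell-like) set against macroglial classes (astrocyte-like, ependymal-like and the oligodendrocyte lineage) had 1 of 35 genes called higher, with a background of 8.95%, and 7 called lower, with a background of 14.3%. The median difference in log2(CPM + 1) was -0.82 over the 35 genes and -0.10 over all tested genes. The gene that was higher was Ifitm2, with 176 and 183 CPM in neuronal classes and 61.0 and 60.2 CPM in macroglial classes (log2 fold change 1.65 ± 0.11, adjusted p = 1.4e-51), carried by Cajal-Retzius cell-like and excitatory neuron-like cells. Its neighbour Ifitm3 went the other way, with 1.36 and 4.28 CPM in neuronal classes and 114 and 133 CPM in macroglial classes (log2 fold change -2.59 ± 0.42, adjusted p = 4.2e-09). Astrocyte-like and ependymal-like cells carried that macroglial level of Ifitm3. Oligodendrocyte precursor-like cells held 1.39 and 1.54 CPM of it and differentiating oligodendrocyte-like cells 1.39 and 5.04 CPM, as low as the neuronal classes. Ifi27 had 17.3 and 13.8 CPM in neuronal and 34.7 and 29.5 CPM in macroglial classes (log2 fold change -1.90 ± 0.20, adjusted p = 1e-20), and Xaf1 had 7.37 and 5.32 CPM in neuronal and 17.5 and 19.1 CPM in macroglial classes (log2 fold change -1.05 ± 0.28, adjusted p = 0.00047). The other genes called lower were Bst2, Gbp3, Herc6 and Rtp4, with at most 1.86 CPM in neuronal classes and 0.652 to 6.77 CPM in macroglial classes. Where the smallest classes left the fit, at a minimum of 50 cells, 0 genes were called higher and 13 lower.

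The genes upstream of the response were described from a list of 44 with a row in the tables, of which 29 passed the low-count filter. Against the mean of the other classes, 21 of the 29 were called higher in microglia-like cells, with a background of 17.7%, and 0 lower, with a background of 9.02%. In endothelial-like cells 13 were higher, with a background of 14.0%, and 1, Irf8, lower, with a background of 9.29%. Ligand transcripts were nearly absent. Ifna1, Ifna2, Ifna4, Ifna5, Ifnl2, Ifnl3 and Ifne were at 0 in every named class, Ifnab had 0 and 0.111 CPM in neuroblast-like cells, and Ifng had 1.38 and 3.15 CPM in ependymal-like cells. The exception was Ifnb1, the gene of interferon beta, with 11.8 and 24.2 CPM in microglia-like cells, from 4 and 199 UMIs, and 0 and 1.32 CPM in border macrophage-like cells, from 0 and 1 UMI (log2 fold change 4.51 ± 0.92, adjusted p = 4.2e-05).

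Receptors were widespread. Ifnar1 stood at 53.3 and 35.4 CPM in microglia-like, 96.1 and 76.5 CPM in border macrophage-like, 118 and 83.2 CPM in endothelial-like and 47.8 and 51.2 CPM in pericyte-like cells, and was called higher in endothelial-like than in pericyte-like cells (log2 fold change 1.17 ± 0.23, adjusted p = 4.8e-06). Ifnar2 held 121 and 104 CPM in microglia-like, 216 and 219 CPM in border macrophage-like, 205 and 168 CPM in endothelial-like and 142 and 121 CPM in pericyte-like cells. Ifngr1 was highest in microglia-like cells at 290.3 and 219 CPM, and it was lower in neuronal classes, at 6.21 and 6.47 CPM, than in macroglial classes, at 33.7 and 35.2 CPM (log2 fold change -2.61 ± 0.19, adjusted p = 2.4e-41). Its partner Ifngr2 went the other way, with 53.6 and 63.0 CPM in neuronal classes and 24.9 and 25.6 CPM in macroglial classes (log2 fold change 1.07 ± 0.12, adjusted p = 7.9e-18), and stood at 124 and 101 CPM in microglia-like cells. Il10rb, shared by the receptors of interferon lambda and interleukin 10, held 65.2 and 86.4 CPM in microglia-like cells and 264 and 219 CPM in border macrophage-like cells (log2 fold change -1.27 ± 0.23, adjusted p = 2.3e-06), 84.7 and 91.5 CPM in endothelial-like cells, and 0.194 and 0.889 CPM in neuronal classes, against 10.3 and 8.86 CPM in macroglial classes. Ifnlr1, the specific chain of the lambda receptor, was at 0 in every class but excitatory neuron-like cells, which held 0.582 and 0.443 CPM.

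Of the kinases and Stat proteins, Jak1 stood at 82.9 and 71.1 CPM, Tyk2 at 11.8 and 10.6 CPM and Stat3 at 50.4 and 51.5 CPM in microglia-like cells, and these 3 were called higher against the mean of the other classes, which held 41.2 and 41.8 CPM of Jak1, 4.84 and 5.96 CPM of Tyk2 and 28.6 and 29.5 CPM of Stat3. Jak1 was lower in endothelial-like cells at 29.1 and 42.98 CPM than in pericyte-like cells at 92.8 and 97.7 CPM, and Jak2 higher, at 51.6 and 52.7 CPM and 25.8 and 18.6 CPM. Among sensors, the endosomal RNA receptor Tlr7 held 62.2 and 54.1 CPM in microglia-like cells and 48.04 and 50.1 CPM in border macrophage-like cells and at most 1.05 CPM in every other class. The DNA sensor Cgas held 23.7 and 27.5 CPM in microglia-like cells and 0 and 9.23 CPM in border macrophage-like cells (log2 fold change 2.05 ± 0.55, adjusted p = 0.004), and its adaptor Tmem173 (Sting) 17.8 and 29.4 CPM and 12.01 and 18.5 CPM in these classes. The RNA receptor Tlr3 held 39.7 and 36.05 CPM in endothelial-like cells and 17.2 and 0 CPM in pericyte-like cells (log2 fold change 1.56 ± 0.40, adjusted p = 7e-04). Against the mean of the other classes, Tlr3 was called higher in microglia-like cells as well as in endothelial-like cells. The RNA helicase Ddx58 (Rig-I) held 5.92 and 3.77 CPM in microglia-like cells and 24.02 and 15.8 CPM in border macrophage-like cells (log2 fold change -1.88 ± 0.57, adjusted p = 0.015), and was called higher in endothelial-like cells, at 15.9 and 19.4 CPM, than in the other classes and lower in neuronal than in macroglial classes, at 0.554 and 1.23 CPM and 2.49 and 2.90 CPM. Also called higher in endothelial-like cells against the other classes were Cgas at 2.65 and 4.16 CPM, Tmem173 at 15.9 and 6.93 CPM, Eif2ak2 at 14.6 and 9.70 CPM, Irf2 at 68.9 and 85.96 CPM, Irf5 at 9.27 and 8.32 CPM and Ifngr1 at 52.96 and 47.1 CPM. The plain means of Cgas, Irf5 and Ifngr1 were below those of the other classes (ratios 0.992, 0.852 and 0.864).

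The remaining upstream genes called in microglia-like cells against the rest were the RNA-activated kinase Eif2ak2 at 14.8 and 17.4 CPM, the helicase Dhx58 at 5.92 and 2.43 CPM, the kinase Tbk1 at 29.6 and 29.6 CPM, the factors Irf2 at 77.02 and 81.7 CPM and Irf5 at 44.4 and 52.98 CPM, and the phosphatase Ptpn6 at 181 and 144 CPM. Irf8, a factor of macrophage identity, held 193 and 164 CPM in microglia-like cells and 96.1 and 94.97 CPM in border macrophage-like cells (log2 fold change 1.07 ± 0.26, adjusted p = 0.00094) and was listed at 0 in endothelial-like cells, against 10.2 and 4.65 CPM in pericyte-like cells. Irf5 was called higher in endothelial-like cells, at 9.27 and 8.32 CPM, than in pericyte-like cells, at 0.537 and 4.65 CPM. Socs3, a feedback inhibitor, held 50.4 and 36.8 CPM in microglia-like cells and 30.02 and 18.5 CPM in border macrophage-like cells (log2 fold change 1.15 ± 0.38, adjusted p = 0.033). Socs1, the other feedback inhibitor, and the adaptor Mavs were lower in neuronal classes on the fitted log scale, where Socs1 had 8.77 and 2.41 CPM in neuronal and 6.99 and 7.46 CPM in macroglial classes and Mavs 0.263 and 0.702 CPM in neuronal and 5.97 and 4.61 CPM in macroglial classes. Socs1 overlapped between these groups on plain CPM. Within the macrophage pair, 4 of the 29 upstream genes were higher in microglia-like cells, with a background of 3.86%, and 2 lower, with a background of 2.72%.

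To describe single cells at equal depth, each cell was thinned to 2000 UMIs and shallower cells were left out (23 and 309 microglia-like cells, 4 and 13 border macrophage-like cells, 16 and 11 endothelial-like cells). At least 1 core gene was then seen in 12.5% (9 of 72, exact Clopper-Pearson 95% interval 5.88 to 22.4) and 12.2% (199 of 1632, 10.6 to 13.9) of microglia-like cells. In border macrophage-like cells the share was 30% (12 of 40, 16.6 to 46.5) and 36.4% (56 of 154, 28.8 to 44.5). Endothelial-like cells showed 27.4% (26 of 95, 18.7 to 37.5) and 23.9% (28 of 117, 16.5 to 32.7), and pericyte-like cells 23.1% (101 of 437, 19.2 to 27.4) and 17.0% (9 of 53, 8.07 to 29.8). Excitatory neuron-like cells, where core genes are near 0, gave 2.86% (26 of 909) and 2.17% (13 of 600). Without thinning the shares were 20% and 19.7% in microglia-like, 40.9% and 52.7% in border macrophage-like and 52.3% and 37.5% in endothelial-like cells, at median depths of 3108 and 3675, 3085.5 and 3908, and 5847 and 4456.5 UMIs. These intervals cover counting error only.

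Cells with several core genes at once were rare. At 2000 UMIs, at least 3 core genes were seen in 0 of 72 microglia-like cells of library 1, which allows a share of up to 4.17%, and in 4 of 1632 (0.245%) in library 2. In border macrophage-like cells they were seen in 2 of 40 (5%, 0.611 to 16.9) and 17 of 154 (11.0%, 6.56 to 17.1), and in endothelial-like cells in 1 of 95 (1.05%) and 3 of 117 (2.56%). The variance of core UMIs per cell over the mean, which is near 1 for counts scattered evenly over cells, was 1.52 and 2.56 in microglia-like, 9.62 and 3.50 in border macrophage-like, 1.27 and 1.88 in endothelial-like and 1.24 and 0.846 in pericyte-like cells. In library 1 a single thinned border macrophage-like cell held 18 core UMIs, against a mean of 0.9 per cell. The richest 10% of border macrophage-like cells held 77.8% and 56.8% of the core UMIs of the class. That share was 51.4% and 63.0% in endothelial-like, 54.7% and 55.6% in pericyte-like and 83.3% and 88.0% in microglia-like cells. The share must be high where few cells hold any core UMI, as in microglia-like cells at 12.5% and 12.2%. It therefore cannot show whether border macrophage-like cells stood apart. The variance over the mean was highest in border macrophage-like cells among these classes. For uneven counts it tends to grow with the mean, so it does not rank how uneven the classes were. The mean was 0.9 and 0.903 core UMIs per cell in border macrophage-like cells. It was 0.368 and 0.393 in endothelial-like, 0.293 and 0.170 in pericyte-like and 0.167 and 0.184 in microglia-like cells.

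**Figure D4:**
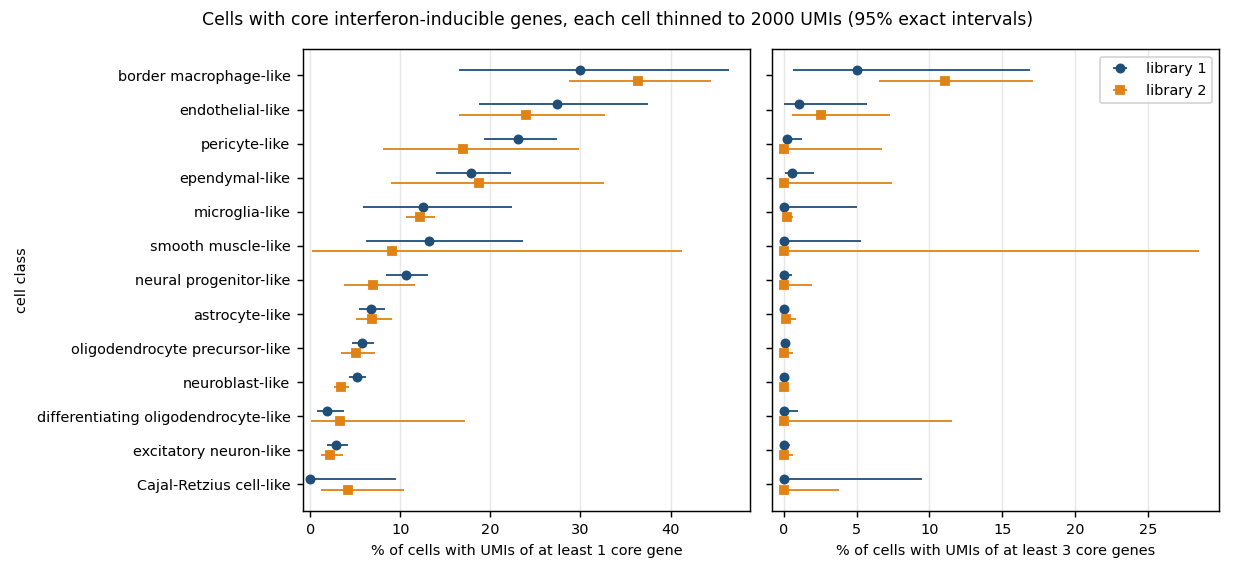
Share of cells, each thinned to 2000 UMIs, with UMIs of at least 1 core gene (left) and of at least 3 (right), per class and library, with exact 95% intervals. Border macrophage-like cells are highest in both panels, at 30% and 36.4% on the left and 5% and 11.0% on the right.

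Without thinning, 112 of all 26060 cells held at least 3 core genes and 29 held at least 5. Of those 29, 16 were border macrophage-like, 5 endothelial-like, 2 microglia-like, 2 ependymal-like, 1 pericyte-like and 1 astrocyte-like, and 2 were unnamed. The strongest were 3 border macrophage-like cells. One of library 1 held 12 core genes with 35 core UMIs, and 2 of library 2 held 12 and 10 core genes with 32 and 17 core UMIs. All 3 carried Ifit1, Ifit2, Ifit3, Isg15, Irf7, Rsad2 and Xaf1 together. None of the 29 cells held an Ifnb1 UMI. That count says little, because Ifnb1 was rare in every class and only 2 of the 29 were microglia-like.

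Abundant genes were spread differently from core genes. At 2000 UMIs, Ifitm3 was seen in 34.7% and 33.3% of endothelial-like cells, with up to 30 UMIs in 1 cell of library 2, and in 91.8% and 96.2% of pericyte-like cells. Ifitm1 was seen in 0 of 95 and 0 of 117 endothelial-like cells, which allows up to 3.16% and 2.56%, and in 71.4% and 81.1% of pericyte-like cells. Bst2 was seen in 34.7% and 33.8% of microglia-like cells, in 82.5% and 79.9% of border macrophage-like cells and in 0 of 909, which allows up to 0.330%, and 2 of 600 excitatory neuron-like cells. In pericyte-like cells 309 of the 335 with Ifitm2 in library 1 and 41 of 42 in library 2 also held Ifitm3. In border macrophage-like cells of library 2, Isg15 was seen in 17 of 154 cells and Ifit3 in 9, with both in 5. Library 1 had Isg15 in 2 of 40 cells and Ifit3 in 3, with both in 2. So most pericyte-like cells held Ifitm3 and most border macrophage-like cells held Bst2, while Isg15 and Ifit3 were seen in a minority of border macrophage-like cells at this depth.

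Ifnb1 transcripts sat in few microglia-like cells: 2 of 95 in library 1 (2.11%, 0.256 to 7.40) and 69 of 1941 in library 2 (3.55%, 2.78 to 4.48), with up to 35 UMIs in 1 cell. Outside them, 1 astrocyte-like cell of library 1 and 1 cell each of 4 other named classes and 27 unnamed cells of library 2 held any. Within microglia-like cells of library 2, the 69 cells with an Ifnb1 UMI held 489 CPM of core genes and the 1872 without held 80.1 CPM. The cells with Ifnb1 were deeper, with a median of 5182 UMIs against 3624.5, so shares of cells favour them while CPM does not. This split was drawn from the data within 1 library, and no test is given.

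Isg15 supplied 142 of the 189 core UMIs of the cells with Ifnb1. It was seen in 17 of 69 cells with Ifnb1 (24.6%, 15.1 to 36.5) and in 93 of 1872 without (4.97%, 4.03 to 6.05), at 368 CPM and 28.9 CPM. A single cell held 38 of the 142 Isg15 UMIs with Ifnb1, and without it the level was 278 CPM. Of all 369 Isg15 UMIs in these microglia-like cells, 38.5% lay in the 69 cells. Irf1 was seen in 36.2% (25.0 to 48.7) of cells with Ifnb1 and 12.2% (10.8 to 13.8) without, at 127 CPM and 38.9 CPM. Ifit1 had 12 UMIs in 6 of the 69 cells and 2 UMIs in 2 of the 1872. Ifit2 was seen in 8.70% and 1.01%, and Ifih1 in 10.1% and 2.46%, of cells with and without Ifnb1. Bst2 differed less, at 62.3% and 48.8% of cells and 272 CPM and 220.4 CPM. Other genes were lower in the cells with Ifnb1, on few UMIs: Irf9 had 7.77 CPM with and 16.8 CPM without, Stat2 2.59 CPM with and 8.16 CPM without, and Lgals3bp 18.1 CPM with and 29.2 CPM without. Cmpk2, Zbp1, Gbp2, Usp18 and Ifi44 were at 0 in the 69 cells.

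**Figure D5:**
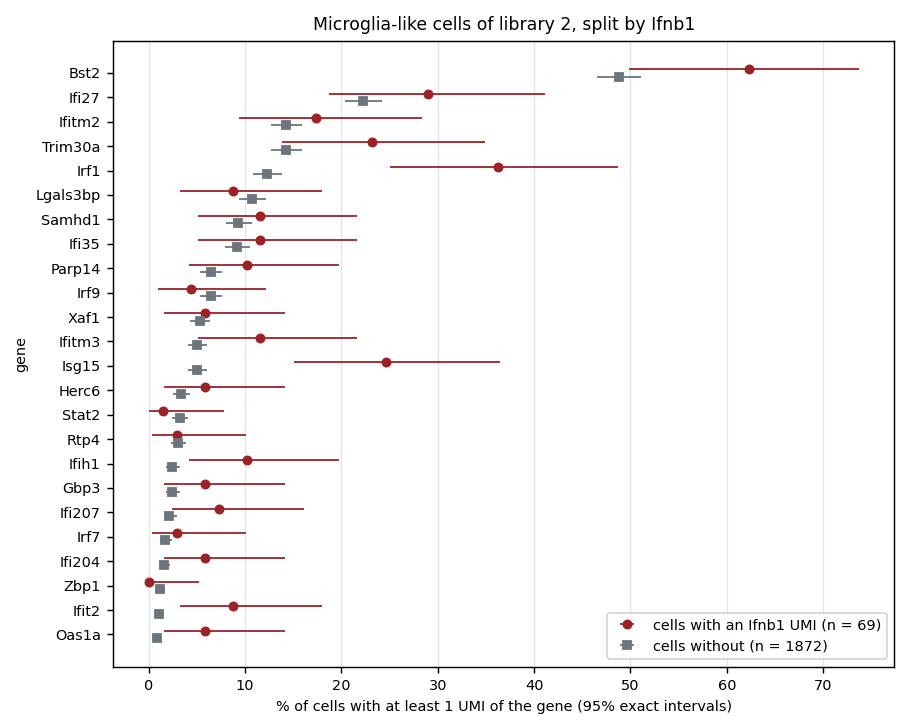
Share of library 2 microglia-like cells with a UMI of each gene, in the 69 cells with an Ifnb1 UMI and the 1872 without, with exact 95% intervals, for the 24 genes seen in at least 20 cells. Isg15 (24.6% and 4.97%) and Irf1 (36.2% and 12.2%) lie farthest apart, while most other intervals overlap.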

How the data were processed

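Per the labels' protocols, fresh cells of postnatal brain were run on the Chromium 3′ v3 system and sequenced on an MGISEQ-2000. As deposited, the tables hold raw UMI counts per gene and barcode, made with Cell Ranger 6.1.2 on mm10, per the submitters' processing notes. The sources used here do not say how reads in overlapping or antisense genes were counted. The 2 libraries, of 1 group, are the replicates.

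Barcodes had to show 500 genes or more, with mitochondrial UMIs making up no more than 10% (Python 3.11.15, scanpy 1.11.5). Scrublet, at an assumed rate of 6%, marked 626 doublets in library 1 by its automatic threshold. In library 2 that threshold marked 0, so the 897 barcodes with the top 6% of scores were removed, a choice made after seeing the data. Counts were scaled to 10000 per cell and logged, and cells were clustered by the Leiden method at resolution 1 on 2000 variable genes, 30 components and 15 neighbours, leaving out the 35 genes, the core genes and the pathway genes. Clusters were named from marker lists, with limits set after seeing the data. Counts were summed per class and library for the 12 classes with at least 30 cells in each library and tested with edgeR 4.0.16 in R 4.3.3 (TMM, filterByExpr, Benjamini-Hochberg over 13799 genes, 11 residual degrees of freedom). Library was a block, since the classes of 1 library share a suspension. DESeq2 1.42.0 was an alternative. Differences of CPM used a pseudocount of 1 CPM. The test was tried on simulated counts first. Intervals are exact Clopper-Pearson intervals of 95%, and limits for a count of 0 use 3 counts.

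Values are printed for every one of the 35 genes that was called in a comparison, and for every called or receptor gene of the pathway list except 1 that is counted but not reported here. The 35 genes, the lists and the comparisons were chosen with earlier results of these data known.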

Additional observations from a re-analysis of the deposited data

How the results depend on the processing

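Counts below are of the 35 genes. Scaling with DESeq2 size factors, and a fit with no replicate block (19 genes higher in microglia-like and 19 in endothelial-like cells, 19 lower in microglia-like than in border macrophage-like cells), changed the call of none of the 82 single gene results, and no result reversed under any alternative run. The DESeq2 test called 12 genes lower in microglia-like than in border macrophage-like cells in place of 19, and 4 higher in endothelial-like than in pericyte-like cells in place of 8, and 18 single gene calls were lost. With doublets kept, 2 genes were lower in microglia-like cells, and 0 were higher and 18 lower in neuronal classes. A minimum of 50 cells gave 2, 0 and 13 for the same counts, and left border macrophage-like cells out of the fit, so their comparison was not run. The cause was not tested.

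Leaving out either library gives fold changes with no test. Counts past 2-fold then ranged from 17 to 21 higher and from 2 to 5 lower in microglia-like cells, from 17 to 22 higher and from 4 to 5 lower in endothelial-like cells, from 0 to 2 higher and from 23 to 24 lower in microglia-like than in border macrophage-like cells, from 11 to 17 higher and from 8 to 12 lower in endothelial-like than in pericyte-like cells, and from 1 to 2 higher and from 9 to 10 lower in neuronal classes.

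Shares of cells depend on depth by construction. The mean share of microglia-like cells with a core gene was 7.48% at 1000 UMIs, 17.5% at 3000 UMIs and 19.8% without thinning, and 11.6% with doublets kept and 11.9% at Leiden resolution 2. For endothelial-like cells it was 16.7%, 31.5% and 44.9% at 1000 UMIs, at 3000 UMIs and without thinning. Microglia-like cells with at least 3 core genes were 1.09% without thinning. Over the libraries left out in turn these shares were 12.2% to 12.5%, 23.9% to 27.4% and 0% to 0.245%. Depth limits values in small classes: 1 UMI is worth 6.00 CPM in border macrophage-like cells of library 1.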

Other observations

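Cells left without a class also held these genes. Cluster 27, which carried markers of neutrophils and of lymphocytes and had 10 and 85 cells in libraries 1 and 2, held 6321 and 3756 CPM of the 35 genes and 86.6 and 203 CPM of the core genes. In library 2, 2 of its cells held 8 and 7 core genes. Clusters 21, 23 and 25, with 2059, 2203 and 413 cells in library 2 and median depths of 953, 996 and 1052 UMIs, held 52.6, 57.1 and 51.3 CPM of core genes there.

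Astrocyte-like cells came from clusters 3 and 8, which differed in the summed level of the 35 genes in both libraries. Cluster 8, led by Ttr, a gene of the choroid plexus, held 624 and 613 CPM, and cluster 3 held 341 and 326 CPM. Cluster 17, which carried fibroblast markers, held 1466 and 1111 CPM.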
